A study of Mus musculus with 12 samples.

Results

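The comparison set 30 h against 18 h after a serum shock in mouse embryonic fibroblasts labelled MLL1 knockout. Its members were the 3 arrays titled MLL1-KO MEF CT30 and the 3 titled MLL1-KO MEF CT18, chosen by these titles, so 6 of the 12 arrays in the series entered it. The other 6 are wild-type (WT) fibroblasts, 3 at each of the same times, and were used to test where the change between the times differed by genotype. They also entered the shared fit, the choice of probe sets and the filter on dim genes. Mouse embryonic fibroblasts (MEF) are connective tissue cells grown out of embryos. All groups grew in medium with 2 sera, fetal bovine at 5% and newborn calf at 5%, and were then shocked with 50% horse serum for 2 h. A reaction started from about 100 ng of total RNA. No allele, strain, embryo, clone or passage is named for either genotype, so whether each genotype is 1 line or several is unknown. Nothing says that the 3 replicates of a group are separate cultures, and the p-values may therefore reflect no more than technical spread between arrays.

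A pulse of horse serum first switches on immediate early genes and growth factor signalling and then leaves the circadian clocks of the cultured cells running roughly in step. In the clock, BMAL1 (Arntl) and CLOCK activate the Per, Cry and Nr1d genes, whose products shut the activators down again, while ROR proteins and REV-ERB (Nr1d1, Nr1d2) push and pull on Arntl. MLL1, encoded by Kmt2a, is a histone methyltransferase of the H3K4 class, best known for keeping HOX genes active, and it also binds CLOCK. A pair of times 12 h apart samples opposite phases of a daily rhythm and, at the same time, a later stage of the recovery from serum, and the comparison cannot tell these apart.

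Values below are array intensities in the order of replicates 1, 2 and 3. A log2 difference is the mean of log2(intensity + 16) at 30 h minus that at 18 h, with its standard error after ±, from limma fitted to all 12 arrays with 3 arrays in each group. A gene rose or fell where the two-sided p, adjusted by Benjamini-Hochberg over all 13956 genes tested, was under 0.05. Arrays measure RNA of the whole culture, so fewer cells of a type and less RNA per cell cannot be told apart.

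Kmt2a, the targeted gene, had an intensity of 2120.2, 2174 and 1959.7 at 18 h against 1338, 1367 and 1584 at 30 h in the MLL1-KO arrays and 2265, 2824 and 2099.7 at 18 h against 2129, 2155 and 2069 at 30 h in WT. The 18 h arrays of the labelled knockout lay among or just below those of WT, and the 30 h arrays lay below every other array. Kmt2a fell between the times in MLL1-KO, with a log2 difference of -0.54 ± 0.10 (adjusted p = 0.000367), while its WT value was -0.17 ± 0.10 (adjusted p = 0.400). The part of the transcript that the knockout removes is not given, so this probe set does not check the label, and the arrays are called MLL1-KO below as their titles have it. Of 15 fibroblast markers 13 were tested, and the summed intensity of all 15 ran from 65355 to 69687 in the 6 MLL1-KO arrays. Lum and Fap were too dim to be tested, and the defining receptor Pdgfra ran from 354 to 445 in MLL1-KO and from 3203 to 4040.1 in WT. Among the tested markers 2 rose and 0 fell, namely the mesenchymal transcription factors Twist2 (0.86 ± 0.12, adjusted p = 4.73e-05) and Prrx1 (0.54 ± 0.08, adjusted p = 4.87e-05). Fibroblast markers that fell numbered 1 without replicate 2 at 30 h and 2 without replicate 3 at 18 h.

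The first 18 h replicate stood apart from its partners. Across the tested genes it correlated with replicates 2 and 3 at 0.988 and 0.984, whereas those correlated with each other at 0.995. On the first principal component of the 6 MLL1-KO arrays, which held 72.8% of the variance, replicates 2 and 3 at 18 h lay at -27.1 and -27.1, replicate 1 at -9.89, and the 30 h arrays at 23.9, 20.2 and 19.99. Of the genes called for time, replicate 1 was displaced from its partners toward the 30 h level in 4307 and away from it in 1177. The median replicate SD of a gene at 18 h was 0.106 on the log2 scale with all 3 arrays and 0.0597 over replicates 2 and 3. At 30 h it was 0.0999. The counts of the gene lists are therefore given with and without 18 h replicate 1.

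The change was broad and mostly small. Between 18 h and 30 h, 5484 of 13956 genes (39.3%) were called, of which 2912 (20.9%) rose and 2572 (18.4%) fell. Of these, 124 (0.889%) rose and 142 (1.02%) fell by at least 2-fold. Without 18 h replicate 1 the calls numbered 5992 (42.9%), with 3278 (23.5%) up and 2714 (19.4%) down, and 427 in place of 266 genes reached a 2-fold change. In all, 5167 genes were called in the same direction either way, 317 only with replicate 1, 825 only without it and 0 in opposite directions. The 3 arrays of each time did not overlap for 6447 genes (46.2%), 3386 (24.3%) higher and 3061 (21.9%) lower at 30 h, against 3570 (25.6%), 1840 (13.2%) and 1730 (12.4%) in WT.

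WT fibroblasts changed less over the same interval. There, 553 genes (3.96%) were called, 337 (2.41%) up and 216 (1.55%) down, and the median absolute log2 difference over all tested genes was 0.0973 against 0.177 in MLL1-KO. That WT count ranged from 157 without WT 30 h replicate 3 to 1032 without MLL1-KO 18 h replicate 1. The difference of the time effects (MLL1-KO minus WT) was called for 2838 genes (20.3%), positive for 1427 (10.2%) and negative for 1411 (10.1%). Among genes with that call, 58 fell in MLL1-KO while they rose in WT and 6 did the reverse. Both genotypes raised 149 genes and lowered 124.

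**Figure D1:**
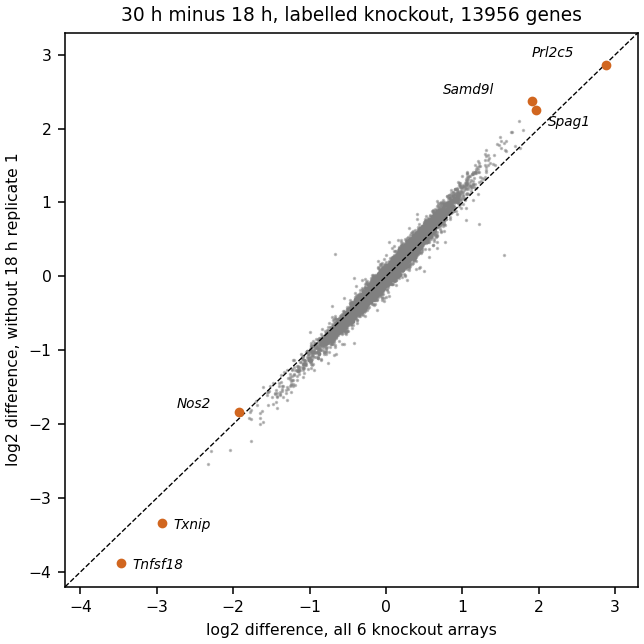
Log2 difference of each of 13956 genes between 30 h and 18 h, from all 6 MLL1-KO arrays on the x axis and without 18 h replicate 1 on the y axis, with the line of equality dashed. Points on the left lie mostly below the line and points on the right mostly above it, and Tnfsf18 moved from -3.47 to -3.87 and Samd9l from 1.91 to 2.37.

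The leading rises and falls were chosen among called genes whose times did not overlap, so that trait follows from the choice. The largest rise was in Prl2c5, a proliferin of the prolactin hormone family. Its intensity was 42.9, 34.6 and 55.5 at 18 h against 463, 462 and 352 at 30 h, a log2 difference of 2.88 ± 0.14 (adjusted p = 8.33e-09), and the WT arrays held 1614, 1336 and 1639 at 18 h against 2709, 2530.0 and 2088 at 30 h. All 6 MLL1-KO arrays were below all 6 WT arrays, and the gene passed the filter on dim genes through its WT level. The Prl2c genes are near-identical copies, and signal from other copies on this probe set was not tested. It rose in WT as well, by 0.67 ± 0.14 (adjusted p = 0.0149), and the difference of the time effects was 2.21 ± 0.20 (adjusted p = 8.03e-06). Samd9l, an interferon-stimulated antiviral gene that was also far brighter in WT, read 162, 42.8 and 63.3 at 18 h against 352, 369 and 293 at 30 h, a log2 difference of 1.91 ± 0.26 (adjusted p = 3.11e-05). Its first 18 h replicate was the highest of the 3 but stayed below all 30 h arrays.

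Ppbp, which encodes a neutrophil-attracting chemokine best known from platelets, read 255, 162 and 168 at 18 h against 888, 619 and 625 at 30 h, a log2 difference of 1.79 ± 0.16 (adjusted p = 8.62e-07). Cxcl5, a chemokine of the same class, read 541, 239 and 246 at 18 h against 1378, 1034 and 921 at 30 h, a log2 difference of 1.74 ± 0.22 (adjusted p = 2.11e-05). In both, replicate 1 was the brightest 18 h array. C3ar1, the receptor for complement fragment C3a, rose (1.57 ± 0.16, adjusted p = 2.41e-06). Gpr149, an orphan G protein-coupled receptor, read 197, 236 and 174 at 18 h against 766, 777 and 618 at 30 h, a log2 difference of 1.75 ± 0.11 (adjusted p = 4.89e-08), with replicate 1 inside the range of its partners. The Wnt receptor Fzd6 rose (1.45 ± 0.19, adjusted p = 2.74e-05).

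Taf9b, a TATA-binding protein associated factor, read 208, 189 and 166 at 18 h against 727, 606 and 586 at 30 h, a log2 difference of 1.69 ± 0.11 (adjusted p = 4.65e-08). Ppp1r10, a nuclear targeting subunit of protein phosphatase 1, read 1106, 530.1 and 435 at 18 h against 1937, 1829.6 and 1678 at 30 h, a log2 difference of 1.49 ± 0.21 (adjusted p = 5.06e-05). For each of these genes the 30 h arrays were clear of all 18 h arrays, as the choice required. Gtf3c6, a subunit of the RNA polymerase III factor TFIIIC, rose by 1.56 ± 0.10, and Dkc1, the pseudouridine synthase dyskerin, by 1.43 ± 0.09. The tRNA-modifying enzyme Trmt12 rose by 1.48 ± 0.17 and Jade2, a partner of the HBO1 histone acetyltransferase, by 1.54 ± 0.16. Spag1, which helps assemble dynein arms, read 112, 61.2 and 47.5 at 18 h against 308, 339 and 306 at 30 h, a log2 difference of 1.96 ± 0.19 (adjusted p = 1.68e-06), and Macc1, a regulator of the MET receptor gene, rose by 1.64 ± 0.20. All 18 h values of Spag1 were under 175, the intensity at the filter on dim genes. None of the leading rises named up to here was called in WT, apart from Prl2c5 and Dkc1.

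**Figure D2:**
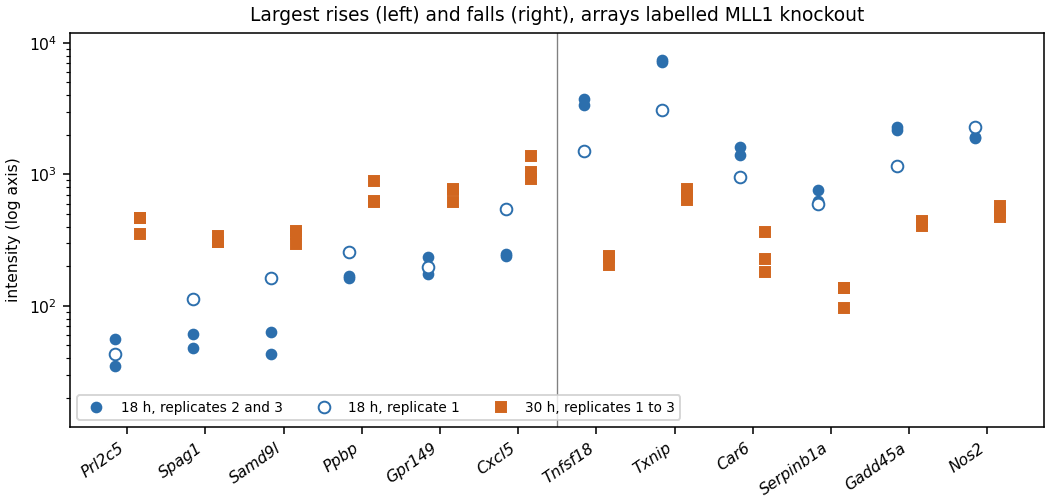
Intensity on a log axis of the 6 largest rises and 6 largest falls in the MLL1-KO arrays, with 18 h replicates 2 and 3 as filled circles, 18 h replicate 1 as an open circle and the 3 arrays at 30 h as squares. The times do not overlap for any of the 12 genes, which were chosen by that rule. The open circle lies between its partners and the squares for Spag1, Samd9l, Ppbp, Cxcl5, Tnfsf18, Txnip, Car6, Serpinb1a and Gadd45a.

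The largest fall was in Tnfsf18, which encodes GITR ligand, a co-stimulatory ligand of the TNF superfamily. Its intensity was 1509.7, 3350.4 and 3715 at 18 h against 204, 241 and 234 at 30 h, a log2 difference of -3.47 ± 0.24 (adjusted p = 9.13e-08). Replicate 1 held less than the other 18 h arrays and still lay above all 30 h arrays, and the value without it was -3.87. In WT the gene read 59.6, 48.9 and 64.8 at 18 h against 50.8, 78.9 and 68.5 at 30 h, 0.15 ± 0.24 (adjusted p = 0.810), and the difference of the time effects was -3.61 ± 0.34 (adjusted p = 1.05e-05). All 6 WT values were under the filter's intensity of about 175, which the gene passed through the MLL1-KO arrays, so its WT time effect is that of a dim signal. Serpinb1a, an intracellular inhibitor of neutrophil proteases, read 598, 758 and 625 at 18 h against 136, 137 and 95.6 at 30 h, a log2 difference of -2.29 ± 0.12 (adjusted p = 8.33e-09). Car6, a secreted carbonic anhydrase, read 958, 1409 and 1625 at 18 h against 361, 226 and 181 at 30 h, a log2 difference of -2.33 ± 0.22 (adjusted p = 1.56e-06). The 30 h arrays of Car6 spread widely, from 181 to 361.

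The pair that makes nitric oxide and imports its substrate fell together. Nos2, the inducible nitric oxide synthase, read 2302, 1886 and 1912 at 18 h against 579, 519 and 469.7 at 30 h, a log2 difference of -1.93 ± 0.11 (adjusted p = 1.34e-08), and Slc7a2, an arginine transporter, read 643, 709 and 723 at 18 h against 194, 220.3 and 196 at 30 h, a log2 difference of -1.69 ± 0.09 (adjusted p = 1.34e-08). Here replicate 1 was the brightest 18 h array for Nos2, so it did not lean toward 30 h as it did for most genes. Gadd45a, a stress-induced growth arrest gene, read 1160.3, 2181 and 2296 at 18 h against 433, 442 and 405 at 30 h, a log2 difference of -2.04 ± 0.18 (adjusted p = 1.08e-06). Signalling genes in the same tail were Rgs16, which damps G protein signals (-1.65 ± 0.13), the kinase Pim1 (-1.65 ± 0.15), the cyclic GMP phosphodiesterase Pde9a (-1.76 ± 0.12) and the T-type calcium channel Cacna1h (-1.70 ± 0.12). Metabolic members were the aldolase Aldoc (-1.79 ± 0.11), the metalloreductase Steap4 (-1.61 ± 0.12) and the acyltransferase Mogat2 (-1.56 ± 0.13). Nppb, the natriuretic peptide B gene, fell (-1.77 ± 0.25, adjusted p = 4.79e-05).

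The alpha-arrestins Txnip and Arrdc4 were among the steepest falls. Txnip binds thioredoxin and takes glucose transporters off the cell surface, and its relative Arrdc4 does much the same. Both are classic targets of the glucose-sensing factors MondoA and ChREBP. Txnip read 3111, 7354 and 7169 at 18 h against 778, 697 and 635 at 30 h, a log2 difference of -2.94 ± 0.21 (adjusted p = 1.80e-07), and Arrdc4 read 778, 1552 and 1625 at 18 h against 431, 399 and 336 at 30 h, a log2 difference of -1.66 ± 0.19 (adjusted p = 7.92e-06). For both genes replicate 1 lay between its partners and the 30 h arrays and overlapped neither. Arrdc1, another alpha-arrestin, fell (-0.38 ± 0.09, adjusted p = 0.00243). Over the list, 0 of 9 tested members rose and 4 fell, 0 and 4 without 18 h replicate 1, with a median log2 difference of -0.11 beside 0.02 over all tested genes. List members that rose numbered 1 without replicate 3 at 30 h. In WT, Txnip gave -0.25 ± 0.21 (adjusted p = 0.596) and Arrdc4 -0.01 ± 0.19 (adjusted p = 0.980), and the differences of the time effects were -2.68 ± 0.30 (adjusted p = 5.22e-05) and -1.64 ± 0.27 (adjusted p = 0.000781).

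The promoters of these 2 genes are shown because they carried the largest falls of the list. Each sequence here and below is RefSeq's window on GRCm38.p6 from 250 bases before to 50 after the annotated start, read 5′ to 3′ on the gene's strand. Txnip (chr3:96557707-96558006, plus strand) holds a carbohydrate response element, here CACGNG, 5 bases and CACGNG again, in capitals. It begins 85 bases before the start. Arrdc4 (chr7:68749189-68749488, minus strand) holds the E-box CACGTG, in capitals.
Txnip: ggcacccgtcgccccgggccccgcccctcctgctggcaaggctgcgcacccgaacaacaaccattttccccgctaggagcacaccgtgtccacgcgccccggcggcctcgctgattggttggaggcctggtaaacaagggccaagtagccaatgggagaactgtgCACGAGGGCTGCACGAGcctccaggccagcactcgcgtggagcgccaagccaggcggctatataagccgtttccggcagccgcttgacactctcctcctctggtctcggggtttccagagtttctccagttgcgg
Arrdc4: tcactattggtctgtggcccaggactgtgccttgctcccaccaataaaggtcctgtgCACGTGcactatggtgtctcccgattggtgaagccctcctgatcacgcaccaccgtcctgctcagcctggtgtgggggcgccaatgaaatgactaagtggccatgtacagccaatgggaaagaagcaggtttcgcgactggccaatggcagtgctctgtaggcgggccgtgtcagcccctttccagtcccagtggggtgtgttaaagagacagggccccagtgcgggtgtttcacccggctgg
The carbohydrate response element occurred, on either strand, in 1 of 9 promoters of the list and in 0.0555% of 27025 genes with a promoter. The E-box occurred in 3 of 9, or 33.3%, against 8.09%. Any E-box that lies inside a longer element is counted for both. A match describes the letters and shows no binding.

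Most genes of cholesterol synthesis fell in MLL1-KO, and none was called in WT. The pathway runs from acetyl-CoA through HMG-CoA and squalene to cholesterol, and its genes are switched on by SREBP2 when the membranes run short of sterol. Of the list, 1 of 17 tested members rose and 11 fell, 2 and 11 without 18 h replicate 1, with a median of -0.42 against 0.09 in WT. Hmgcs1, the HMG-CoA synthase, read 2115, 2255 and 2193 at 18 h against 1247, 1384 and 1364 at 30 h, a log2 difference of -0.71 ± 0.08 (adjusted p = 4.05e-06). Lss, lanosterol synthase, read 1041, 1009 and 1013 at 18 h against 607, 634 and 504 at 30 h, a log2 difference of -0.80 ± 0.09 (adjusted p = 4.94e-06). Cyp51, the lanosterol demethylase, read 891, 1049 and 1204 at 18 h against 636, 701 and 551 at 30 h, a log2 difference of -0.72 ± 0.13 (adjusted p = 0.000357). In all 3 enzymes every 18 h array, replicate 1 included, was brighter than every 30 h array. Mvk, mevalonate kinase, was the member that rose, with a log2 difference of 0.32 ± 0.11 (adjusted p = 0.0247). The Mvk call was lost with cyclic loess scaling (0.0524), with only the 6 labelled-knockout arrays fitted (0.0580) and without 18 h replicate 2 (0.148), 18 h replicate 3 (0.0711), 30 h replicate 1 (0.0845), 30 h replicate 2 (0.0756), adjusted p in parentheses. Cholesterol synthesis genes that rose numbered 0 without replicate 2 or 3 at 18 h or replicate 1 or 2 at 30 h.

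Regulators of the pathway changed as well. Srebf2, which encodes SREBP2, read 2857, 2874 and 3059.6 at 18 h against 1692, 1813 and 1672 at 30 h, a log2 difference of -0.76 ± 0.07 (adjusted p = 7.12e-07). Insig1, a sterol-sensing retention protein that is itself an SREBP target, read 1748, 2102 and 2215 at 18 h against 933, 1033 and 876 at 30 h, a log2 difference of -1.08 ± 0.09 (adjusted p = 6.85e-07). Acss2, which makes acetyl-CoA from acetate, read 521, 433 and 449 at 18 h against 223, 242 and 221 at 30 h, a log2 difference of -0.98 ± 0.09 (adjusted p = 1.08e-06). Replicate 1 was the brightest 18 h array for Acss2 and lay toward the 30 h arrays for Insig1. Scap, the escort protein of SREBP, rose (0.31 ± 0.08, adjusted p = 0.00737), and Fasn, fatty acid synthase, read 2180.0, 1422 and 1436 at 18 h against 3039, 2874 and 2610.5 at 30 h, a log2 difference of 0.78 ± 0.12 (adjusted p = 0.000125). For Fasn replicate 1 was well above the other 18 h arrays and under the 30 h arrays. In this list of regulators and other SREBP targets, 5 of 16 tested members rose and 8 fell, 5 and 8 without 18 h replicate 1. Regulators and other SREBP targets that rose numbered 2 without replicate 2 or 3 at 18 h and 3 without replicate 2 at 30 h. Insig1 rose in WT by 0.35 ± 0.09 (adjusted p = 0.0416), and the difference of the time effects was -1.42 ± 0.13 (adjusted p = 8.03e-06). It was -0.65 ± 0.11 (adjusted p = 0.000769) for Hmgcs1 and -0.82 ± 0.09 (adjusted p = 5.06e-05) for Srebf2, and over cholesterol synthesis it was positive for 0 and negative for 11 of 17 members.

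Sterol transport split between its genes. Abca1, the exporter of cholesterol to apolipoprotein and a target of the sterol-sensing receptor LXR, read 1122, 664 and 618 at 18 h against 1330.2, 1492 and 1475 at 30 h, a log2 difference of 0.87 ± 0.16 (adjusted p = 0.000519). Replicate 1 lay between its partners and the 30 h arrays. Npc2 and Npc1, which move cholesterol out of lysosomes, fell (-0.57 ± 0.09 and -0.34 ± 0.07), and the exporter Abcg1 fell (-0.34 ± 0.09). In the list of LXR targets and sterol efflux, 2 of 7 tested members rose and 3 fell, 2 and 3 without 18 h replicate 1. Efflux genes that rose numbered 1 without replicate 2 or 3 at 18 h or replicate 1 or 2 at 30 h. Abca1 in WT gave -0.49 ± 0.16 (adjusted p = 0.107), and the difference of the time effects was 1.37 ± 0.23 (adjusted p = 0.000970).

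Promoters of a pair of synthesis genes are printed to show matches to the letters that SREBP and its partner NF-Y bind. Hmgcs1 (chr13:119690101-119690400, plus strand) holds the sterol response element TCACNCCAC, in capitals, and Lss (chr10:76531355-76531654, plus strand) the NF-Y box CCAAT on its other strand, in capitals.
Hmgcs1: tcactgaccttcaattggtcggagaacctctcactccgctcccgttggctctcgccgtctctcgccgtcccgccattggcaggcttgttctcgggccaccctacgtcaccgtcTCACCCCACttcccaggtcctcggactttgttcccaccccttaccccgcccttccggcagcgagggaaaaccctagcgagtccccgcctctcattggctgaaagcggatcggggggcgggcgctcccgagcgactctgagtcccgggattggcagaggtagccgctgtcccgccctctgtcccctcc
Lss: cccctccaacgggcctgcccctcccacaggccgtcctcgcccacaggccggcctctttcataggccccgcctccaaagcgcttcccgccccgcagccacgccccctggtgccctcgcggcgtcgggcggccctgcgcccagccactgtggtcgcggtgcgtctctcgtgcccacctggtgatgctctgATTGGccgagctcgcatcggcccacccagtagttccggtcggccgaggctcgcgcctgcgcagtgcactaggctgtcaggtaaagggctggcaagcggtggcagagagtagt
The sterol response element as spelled occurred in 1 of the 14 synthesis genes with a promoter in the table (7.14%) and in 1.44% of all genes. CCAAT occurred in 14 of 14 (100%) against 41.1%. Variants of the sterol element with other letters were not searched.

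Most tested chaperones rose. The heat shock response makes HSP70, HSP90 and their helpers under the factor HSF1 when proteins unfold, and it is one of the routes by which temperature and serum reach the clock. Of the list, 12 of 19 tested members rose and 0 fell, 12 and 0 without 18 h replicate 1, with a median of 0.29. Hsph1, the HSP110 exchange factor, read 1319, 1256 and 1183 at 18 h against 3135, 2823 and 3040.0 at 30 h, a log2 difference of 1.25 ± 0.08 (adjusted p = 3.78e-08). Chordc1, an HSP90 co-chaperone, read 1263, 1202 and 1237 at 18 h against 2501, 2418 and 2035 at 30 h, a log2 difference of 0.90 ± 0.09 (adjusted p = 1.96e-06). Dnaja1, an HSP40, read 3711, 3774 and 3879 at 18 h against 6437, 6587 and 6269 at 30 h, a log2 difference of 0.76 ± 0.07 (adjusted p = 1.56e-06). The 18 h arrays, replicate 1 among them, lay close together for all 3 genes and below each 30 h array. WT showed part of this, since there 6 rose and 0 fell, with a median of 0.20. Hsph1 rose in WT by 0.35 ± 0.08 (adjusted p = 0.0175) and the difference of the time effects was 0.90 ± 0.11 (adjusted p = 7.70e-05). That difference was positive for 5 and negative for 0 of 19 members.

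The promoters of Hsph1 (chr5:149636287-149636586, minus strand) and Chordc1 (chr9:18292017-18292316, plus strand) follow, since they led the list. Capitals mark the heat shock element in a 3-part form, GAANNTTC with 2 further bases and GAA, on either strand. In Chordc1 3 matches overlap in 1 stretch. For Hsph1 RefSeq lists 2 promoters and the one holding the element is shown.
Hsph1: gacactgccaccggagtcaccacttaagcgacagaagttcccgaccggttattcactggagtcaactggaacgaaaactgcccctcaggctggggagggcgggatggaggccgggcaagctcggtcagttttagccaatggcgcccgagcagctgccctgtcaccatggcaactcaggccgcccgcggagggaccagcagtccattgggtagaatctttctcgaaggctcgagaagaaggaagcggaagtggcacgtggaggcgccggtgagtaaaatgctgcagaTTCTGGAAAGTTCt
Chordc1: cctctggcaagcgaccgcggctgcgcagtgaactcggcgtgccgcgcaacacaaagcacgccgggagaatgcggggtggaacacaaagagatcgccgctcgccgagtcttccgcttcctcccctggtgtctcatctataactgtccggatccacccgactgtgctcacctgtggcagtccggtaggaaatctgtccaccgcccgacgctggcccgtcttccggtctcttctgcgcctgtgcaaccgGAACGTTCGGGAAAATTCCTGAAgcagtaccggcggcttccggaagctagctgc
The 3-part form occurred in 4 of 17 list genes with a promoter (23.5%) and in 0.662% of all genes. The shorter GAANNTTC, which is contained in it, occurred in 10 of 17 (58.8%) against 9.04%.

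**Figure D3:**
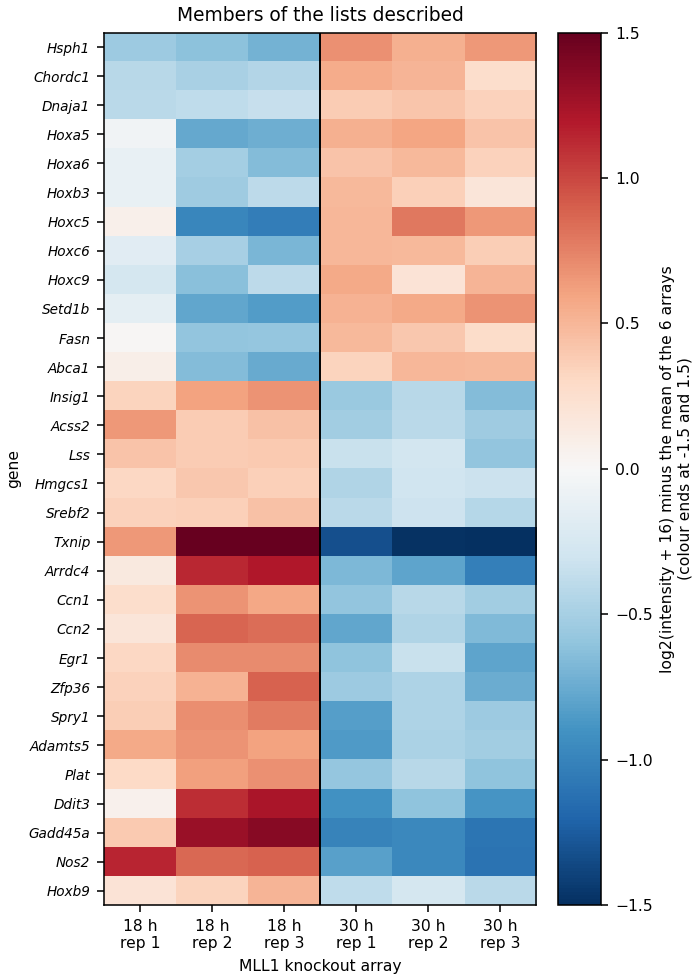
Log2(intensity + 16) of 30 genes of the lists in the 6 MLL1-KO arrays, each minus the gene's mean over the 6, with red above and blue below it. The 3 columns at 18 h and the 3 at 30 h have opposite colours for most genes, and 18 h replicate 1 is pale for Hoxa5, Hoxc5, Fasn, Abca1, Arrdc4 and Ddit3 but as deep as its partners for Hsph1, Hmgcs1, Lss and Srebf2.

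Immediate early genes, which serum and stress switch on within minutes, fell more often than they rose. Of the list, 4 of 27 tested members rose and 14 fell, 4 and 15 without 18 h replicate 1, with a median of -0.33 against 0.08 in WT. Immediate early genes that rose numbered 2 without replicate 2 or 3 at 18 h or replicate 2 at 30 h. Over the list, replicate 1 differed from its 18 h partners by a median log2 of -0.31. The 30 h mean differed from those partners by a median of -0.36. Each median was taken over the list on its own and does not place replicate 1 for a single gene. For 15 of 27 members all 18 h arrays, replicate 1 included, were above all 30 h arrays, and for 3 they were below. Those shares over all tested genes were 21.9% and 24.3%. Egr1, a zinc finger factor induced by ERK signalling, read 2302, 3021 and 3029 at 18 h against 1216, 1459.9 and 1063 at 30 h, a log2 difference of -1.15 ± 0.11 (adjusted p = 2.11e-06). Zfp36, which speeds decay of AU-rich mRNAs, read 1345, 1529.9 and 1961 at 18 h against 718, 765 and 626 at 30 h, a log2 difference of -1.17 ± 0.12 (adjusted p = 3.41e-06). Atf3, a stress-induced repressor, read 1450.5, 1864 and 1839 at 18 h against 836, 841 and 719 at 30 h, a log2 difference of -1.08 ± 0.13 (adjusted p = 8.57e-06). In each, replicate 1 was the dimmest 18 h array and still brighter than the 30 h arrays. AP-1 subunits also rose within the list, Fosl1 by 0.71 ± 0.09 and Jund by 0.39 ± 0.10. Atf3 rose in WT by 0.70 ± 0.13 (adjusted p = 0.00608), and the difference of the time effects was -1.79 ± 0.18 (adjusted p = 1.64e-05).

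Several feedback inhibitors that ERK signalling induces fell as well. Spry1, a Sprouty inhibitor of receptor tyrosine kinases, read 663, 838 and 884 at 18 h against 280.3, 364 and 344 at 30 h, a log2 difference of -1.23 ± 0.12 (adjusted p = 1.63e-06). Spry4 fell (-0.71 ± 0.12) and the MAP kinase phosphatase Dusp10 (-0.76 ± 0.09). In this list 3 of 16 tested members rose and 6 fell, 3 and 7 without 18 h replicate 1. ERK feedback genes that rose numbered 1 without replicate 2 at 18 h or replicate 2 at 30 h, and those that fell numbered 3 without replicate 3 at 18 h or replicate 3 at 30 h. Among all tested genes 20.9% rose and 18.4% fell. The share of ERK feedback genes that rose lay near the former. With either replicate 3 left out, the share that fell lay near the latter. Over this list, replicate 1 differed from its 18 h partners by a median log2 of -0.22. The 30 h mean differed from them by a median of -0.23. These medians were taken separately and do not place replicate 1 for a single gene, as the values of Spry1 show. Among genes driven by TGF-beta and by YAP, the effector of the Hippo pathway, 2 of 18 tested members rose and 10 fell, 2 and 11 without 18 h replicate 1, with a median of -0.38. TGF-beta and YAP genes that rose numbered 1 without replicate 2 or 3 at 18 h or replicate 2 or 3 at 30 h. Ccn2, connective tissue growth factor, read 5636, 9134 and 8880.1 at 18 h against 2902, 3622 and 3145 at 30 h, a log2 difference of -1.26 ± 0.15 (adjusted p = 1.16e-05). Ccn1, its relative and an immediate early gene as well, read 9596, 12708 and 11925 at 18 h against 5293, 5966 and 5544 at 30 h, a log2 difference of -1.02 ± 0.09 (adjusted p = 8.66e-07). Replicate 1 was the dimmest 18 h array for both, with no overlap of the times. Both rose in WT, Ccn2 by 0.60 ± 0.15 (adjusted p = 0.0365) and Ccn1 by 0.41 ± 0.09 (adjusted p = 0.0161), and the differences of the time effects were -1.86 ± 0.21 (adjusted p = 6.11e-05) and -1.43 ± 0.13 (adjusted p = 8.03e-06). The ligand Tgfb1 itself fell (-0.63 ± 0.10), and Ajuba, an inhibitor of Hippo kinases, rose by 0.66 ± 0.10.

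Matrix genes fell across several classes. No collagen rose, and of that list 0 of 21 tested members rose and 11 fell, 0 and 11 without 18 h replicate 1, with a median of -0.31 against -0.05 in WT. Col12a1, which decorates collagen fibrils, read 3142, 3228 and 3045 at 18 h against 1791, 2217 and 2182 at 30 h, a log2 difference of -0.61 ± 0.10 (adjusted p = 0.000178). The fibrillar chains Col5a3 and Col11a1 fell (-0.55 ± 0.10 and -0.50 ± 0.11). Among glycoproteins, proteoglycans and crosslinking enzymes 1 of 26 tested members rose and 13 fell, 3 and 15 without 18 h replicate 1. These matrix genes that rose numbered 2 without WT replicate 3 at 18 h. Fbln1, the elastic fibre protein fibulin-1, read 3241, 3718 and 3644 at 18 h against 1792, 1983 and 1584 at 30 h, a log2 difference of -0.98 ± 0.09 (adjusted p = 1.59e-06). The basement membrane genes Lama4 and Nid2 fell (-0.76 ± 0.09 and -0.76 ± 0.10), and the proteoglycan Vcan rose by 0.44 ± 0.09. For Col12a1 and Fbln1 all 18 h arrays were above all 30 h arrays.

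Matrix proteases and their inhibitors fell more often than they rose, where 20.9% of all tested genes rose and 18.4% fell. Of the proteases and their inhibitors, 3 of 20 tested members rose and 10 fell, 4 and 13 without 18 h replicate 1, with a median of -0.30. The aggrecanase Adamts5 read 983, 1051 and 1001 at 18 h against 357, 465 and 453 at 30 h, a log2 difference of -1.23 ± 0.09 (adjusted p = 1.02e-07). The plasminogen activators Plat and Plau fell. Plat read 2690.4, 3353 and 3503 at 18 h against 1451, 1627 and 1429 at 30 h, a log2 difference of -1.07 ± 0.09 (adjusted p = 7.04e-07), and Plau changed by -0.97 ± 0.14. Stromelysin Mmp3 went the other way and read 529, 581 and 692 at 18 h against 1333, 1203 and 949 at 30 h, a log2 difference of 0.93 ± 0.13 (adjusted p = 3.69e-05). The membrane collagenase Mmp14 and the inhibitor Timp2 rose by 0.41 ± 0.08 and 0.30 ± 0.05. The times did not overlap for Adamts5, Plat or Mmp3. Of smooth muscle contractile genes 1 rose and 3 fell of 13 tested, 2 and 2 without 18 h replicate 1. The share of contractile genes that fell lay near the 18.4% of all tested genes. Contractile genes that rose numbered 2 without replicate 3 at 18 h or WT replicate 1 or 3 at 18 h. Acta2, smooth muscle actin, rose by 0.51 ± 0.13 in MLL1-KO and by 2.14 ± 0.13 (adjusted p = 2.84e-07) in WT, and the difference of the time effects was -1.63 ± 0.18 (adjusted p = 5.22e-05).

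Most interferon-stimulated genes of the list were dim in MLL1-KO, since 18 of 29 had a mean over the 6 MLL1-KO arrays under the filter and were tested through brighter WT arrays. Among the other 11, 3 rose and 2 fell, with a median log2 difference of 0.07. Over the whole list, 12 of 29 tested members rose and 2 fell, 13 and 4 without 18 h replicate 1, with a median of 0.28 against -0.05 in WT, where 0 rose and 0 fell. Interferon-stimulated genes that fell numbered 4 without replicate 3 at 18 h or replicate 1 at 30 h. Ifit1, which binds the ends of viral RNA, read 90.99, 60.6 and 80.3 at 18 h against 263, 148 and 209 at 30 h, a log2 difference of 1.24 ± 0.15 (adjusted p = 1.51e-05). Gbp3, a guanylate-binding protein, read 55.01, 35.1 and 41.4 at 18 h against 129, 103 and 83.1 at 30 h, a log2 difference of 1.01 ± 0.13 (adjusted p = 2.50e-05). All 18 h values of both genes were under the filter's intensity of about 175, which they passed through other arrays, and for Gbp3, with an offset of 64 in place of 16, the log2 difference was 0.64. Stat2, the signal transducer of type I interferon, fell (-0.53 ± 0.07), as did the virus tether Bst2 (-0.59 ± 0.10). Replicate 1 exceeded its 18 h partners over this list by a median of 0.17 on the log2 scale, against 0.03 over all genes, and the list's median without that array was 0.16.

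The promoter of Ifit1 (chr19:34640639-34640938, plus strand) is shown with its interferon-stimulated response elements, GAAA, 2 bases and GAAA on either strand, in capitals.
Ifit1: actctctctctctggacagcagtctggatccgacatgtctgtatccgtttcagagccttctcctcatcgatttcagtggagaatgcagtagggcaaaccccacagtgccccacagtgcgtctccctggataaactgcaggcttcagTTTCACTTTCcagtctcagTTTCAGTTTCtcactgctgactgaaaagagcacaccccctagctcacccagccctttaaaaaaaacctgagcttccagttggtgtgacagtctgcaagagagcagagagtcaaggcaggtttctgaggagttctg
The element occurred in 12 of 23 list genes with a promoter (52.2%) and in 3.99% of all genes, and genes that rose and fell both held it, Ifit1 and Gbp3 among the former and Bst2 and Stat2 among the latter.

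Inflammatory mediators mostly fell while chemokines split. Among all tested genes 20.9% rose and 18.4% fell. Of interleukins and mediators 2 of 17 tested members rose and 11 fell, 2 and 11 without 18 h replicate 1, with a median of -0.33. Interleukins and mediators that rose numbered 1 without replicate 2 at 18 h or replicate 2 at 30 h. Csf2, the growth factor GM-CSF, read 341, 723 and 841 at 18 h against 257, 223 and 220.4 at 30 h, a log2 difference of -1.29 ± 0.25 (adjusted p = 0.000568), and the prostaglandin E synthase Ptges fell (-0.65 ± 0.10). Of 11 chemokines 4 rose and 4 fell, as they did without 18 h replicate 1. Beside Ppbp and Cxcl5, the monocyte attractants Ccl7 and Ccl2 rose by 0.61 ± 0.08 and 0.36 ± 0.09. Those that fell included Cxcl12, which retains stem cells in their niche (-0.58 ± 0.09), Ccl20 (-0.52 ± 0.11) and the membrane-bound Cx3cl1 (-0.27 ± 0.07). In the TNF superfamily 2 of 16 tested members rose and 5 fell, 4 and 5 without 18 h replicate 1. After Tnfsf18, the death receptor Fas read 580.4, 768 and 777 at 18 h against 336, 289 and 267 at 30 h, a log2 difference of -1.21 ± 0.13 (adjusted p = 4.64e-06), and the co-stimulatory receptor Tnfrsf9 fell (-0.86 ± 0.10). In the SERPINB family 2 rose and 3 fell of 8 tested, 2 and 3 without 18 h replicate 1, with Serpinb9, the granzyme B inhibitor, up by 0.58 ± 0.10 and Serpinb8 down (-0.54 ± 0.10). The share of SERPINB genes that rose lay near that of all tested genes.

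HOX genes, the classic dependents of MLL1, had members that rose in 3 of 4 clusters. Of the HOXC cluster 4 of 6 tested members rose and 0 fell, 4 and 0 without 18 h replicate 1, with a median of 0.79 against -0.22 in WT. Hoxc5 read 149.9, 63.8 and 60.3 at 18 h against 206, 255 and 231 at 30 h, a log2 difference of 1.29 ± 0.23 (adjusted p = 0.000315). Hoxc6 read 384, 303 and 264 at 18 h against 617, 615 and 563 at 30 h, a log2 difference of 0.90 ± 0.12 (adjusted p = 2.73e-05). Hoxc9 and Hoxc4 rose by 0.85 ± 0.11 and 0.73 ± 0.18. The times did not overlap for Hoxc5 or Hoxc6, and replicate 1 was the brightest of the 18 h arrays in both. Of 9 listed HOXC genes 6 passed the filter on dim genes, and 4 of these had a mean over the MLL1-KO arrays under it. The other 2 both rose. In the HOXA cluster 5 of 9 tested members rose and 0 fell, 5 and 1 without 18 h replicate 1, with a median of 0.45. HOXA genes that rose numbered 3 without replicate 2 at 18 h. Of the 9 members, 2 were dim in MLL1-KO by that measure, and of the other 7, 3 rose and 0 fell, with a median of 0.13. Hoxa5 read 284, 168 and 172 at 18 h against 435, 453 and 403 at 30 h, a log2 difference of 1.03 ± 0.15 (adjusted p = 5.15e-05), and Hoxa6 and Hoxa7 rose by 0.85 ± 0.12 and 0.48 ± 0.10.

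The HOXB and HOXD clusters were less uniform. In HOXB 3 rose and 1 fell of 9 tested, 3 and 2 without 18 h replicate 1. HOXB genes that fell numbered 2 without replicate 1 at 30 h. Hoxb3 and Hoxb2 rose, by 0.69 ± 0.11 and 0.40 ± 0.08, and Hoxb9 fell with 2424, 2639 and 2995 at 18 h against 1605, 1735 and 1580.0 at 30 h, a log2 difference of -0.70 ± 0.08 (adjusted p = 8.30e-06). Of the 9 tested, 2 were dim in MLL1-KO, and of the other 7, 2 rose and 1 fell. In HOXD 4 of 9 listed genes were bright enough to test and none was called, with or without 18 h replicate 1. No HOX gene was called in WT, and the difference of the time effects was called for 4 HOXC genes, 4 HOXA genes and 3 HOXB genes, all positive apart from Hoxb9. It was 1.74 ± 0.32 (adjusted p = 0.00170) for Hoxc5, 1.22 ± 0.21 (adjusted p = 0.00101) for Hoxa5 and -0.71 ± 0.11 (adjusted p = 0.000711) for Hoxb9. Over the HOXC and HOXA lists, replicate 1 exceeded its 18 h partners by medians of 0.29 and 0.23 on the log2 scale, against 0.03 over all genes.

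Among the H3K4 methyltransferases and the subunits they share, 8 of 15 tested members rose and 2 fell, 8 and 2 without 18 h replicate 1, with a median of 0.25 beside 0.02 over all tested genes. Setd1b, a methyltransferase of the SET1 branch, read 632, 399.6 and 382 at 18 h against 1006, 1047 and 1123 at 30 h, a log2 difference of 1.18 ± 0.14 (adjusted p = 8.19e-06). Its first 18 h replicate stood above its partners and below the 30 h arrays. The shared subunit Ash2l and the scaffold Hcfc1 rose by 0.35 ± 0.07 and 0.47 ± 0.07. Rbbp5, another core subunit of the complexes, fell with 1537, 1981 and 1932 at 18 h against 1233, 1327 and 1290.1 at 30 h, a log2 difference of -0.49 ± 0.10 (adjusted p = 0.000726), as did Kmt2a itself. In WT 0 rose and 0 fell, and the difference of the time effects was 1.19 ± 0.19 (adjusted p = 0.000736) for Setd1b and -0.53 ± 0.14 (adjusted p = 0.0119) for Rbbp5.

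Cell cycle genes did not move in 1 direction in MLL1-KO, whereas WT fibroblasts raised most of the DNA replication list. In G1/S and DNA replication 8 of 35 tested members rose and 9 fell, 8 and 9 without 18 h replicate 1, against WT where 26 rose and 0 fell of the same 35. Over all tested genes 20.9% rose and 18.4% fell in MLL1-KO, and the share of G1/S genes that rose lay near the former. G1/S genes that rose numbered 5 without replicate 1 at 30 h, and those that fell numbered 4 without replicate 2 at 18 h and 5 without replicate 3 at 30 h. The nucleotide enzymes Tyms and Rrm2 and the cyclin Ccne1 rose in MLL1-KO, by 0.81 ± 0.09, 0.65 ± 0.06 and 0.67 ± 0.08. The licensing factor Cdt1 read 1831, 2094 and 2286 at 18 h against 1598, 1450.0 and 1348 at 30 h, a log2 difference of -0.49 ± 0.10 (adjusted p = 0.000689), and the transcription factor E2f1 fell (-0.40 ± 0.07). Cdt1 rose in WT by 0.43 ± 0.10 (adjusted p = 0.0200), and the difference of the time effects was -0.92 ± 0.14 (adjusted p = 0.000375). That difference was positive for 0 and negative for 20 of the 35 members. Of 37 mitosis genes 3 rose and 5 fell, 3 and 6 without 18 h replicate 1, with the survivin gene Birc5 down (-0.44 ± 0.12). Mitosis genes that rose numbered 0 without replicate 2 at 30 h, 5 without WT replicate 1 at 18 h and 6 without WT replicate 3 at 18 h, and those that fell numbered 2 without replicate 2 at 18 h or replicate 3 at 30 h and 3 without replicate 3 at 18 h.

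Some brakes of the cycle fell. Rb1, the retinoblastoma protein that holds back E2F, read 2034, 2195 and 2215 at 18 h against 1083, 1331 and 1262 at 30 h, a log2 difference of -0.81 ± 0.10 (adjusted p = 1.44e-05), and its relative Rbl1 rose by 0.44 ± 0.10. The 18 h arrays of Rb1 were all above the 30 h arrays. Of CDK inhibitors and the retinoblastoma family 1 of 9 tested members rose and 5 fell, 1 and 4 without 18 h replicate 1. CDK inhibitors and RB family genes that fell numbered 3 without replicate 2 or 3 at 18 h or replicate 1 at 30 h. Among p53 targets 5 of 18 tested members rose and 9 fell, 5 and 9 without 18 h replicate 1, with Gadd45a and Fas above as the steepest falls and the kinase Plk3 at -0.86 ± 0.16. Sesn1, a sestrin that restrains mTORC1, rose by 0.41 ± 0.08. Over the p53 list, replicate 1 differed from its 18 h partners by a median log2 of -0.20, and the 30 h mean differed from them by -0.22.

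ATF4 drives the response to amino acid shortage. Of its targets in MLL1-KO, 2 of 19 tested members rose and 9 fell, 1 and 10 without 18 h replicate 1, with a median of -0.26. ATF4 targets that rose numbered 1 without replicate 2 at 30 h. In WT 9 rose and 0 fell, with a median of 0.36, and the difference of the time effects was positive for 0 and negative for 13 of 19 members. Ddit3, which encodes the stress factor CHOP, read 779, 1628 and 1765 at 18 h against 389, 482 and 394 at 30 h, a log2 difference of -1.60 ± 0.21 (adjusted p = 2.71e-05), with replicate 1 far below its partners. Trib3, a pseudokinase induced by CHOP, read 1113, 1198 and 1147 at 18 h against 662, 807 and 669 at 30 h, a log2 difference of -0.69 ± 0.12 (adjusted p = 0.000363), and its WT value was 0.46 ± 0.12 (adjusted p = 0.0499). The difference of the time effects was -1.75 ± 0.30 (adjusted p = 0.00104) for Ddit3 and -1.14 ± 0.17 (adjusted p = 0.000494) for Trib3. Genes of the unfolded protein response were mixed, since 6 rose and 5 fell of 19 tested, 6 and 8 without 18 h replicate 1. Among all tested genes 20.9% rose and 18.4% fell. Unfolded protein response genes that fell numbered 2 without replicate 3 at 18 h or replicate 1 at 30 h and 3 without replicate 2 at 18 h or replicate 3 at 30 h.

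The clock genes were tested one by one. Of 7 activators and members of the ROR and REV-ERB loop 1 rose and 3 fell, of 12 repressors and their regulators 3 rose and 6 fell, and of 9 E-box driven outputs 0 rose and 5 fell. These counts were the same without 18 h replicate 1. Clock activator and loop genes that rose numbered 0 without replicate 2 or 3 at 18 h, replicate 2 or 3 at 30 h, WT replicate 1 at 18 h or WT replicate 3 at 30 h. Clock repressors that rose numbered 1 without replicate 2 or 3 at 18 h or replicate 1 or 2 at 30 h. Arntl, which encodes the activator BMAL1, read 1485, 1619 and 1528 at 18 h against 910.1, 1206 and 1024 at 30 h, a log2 difference of -0.56 ± 0.10 (adjusted p = 0.000365). In WT it read 781, 711 and 633 at 18 h against 1168, 1136 and 1243 at 30 h, a rise of 0.73 ± 0.10 (adjusted p = 0.00103). Arntl thus moved in opposite directions in the genotypes with no overlap of the times in either, and the difference of the time effects was -1.29 ± 0.14 (adjusted p = 4.70e-05). Its partner Clock read 2172, 2259 and 1942 at 18 h against 1953, 2301 and 2257 at 30 h, with overlapping times (0.03 ± 0.09, adjusted p = 0.848). Rora, the activator of Arntl, read 1386, 1421 and 1373 at 18 h against 611, 802 and 776 at 30 h, a log2 difference of -0.93 ± 0.10 (adjusted p = 5.40e-06), and also fell in WT, with -0.45 ± 0.10 (adjusted p = 0.0207).

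**Figure D4:**
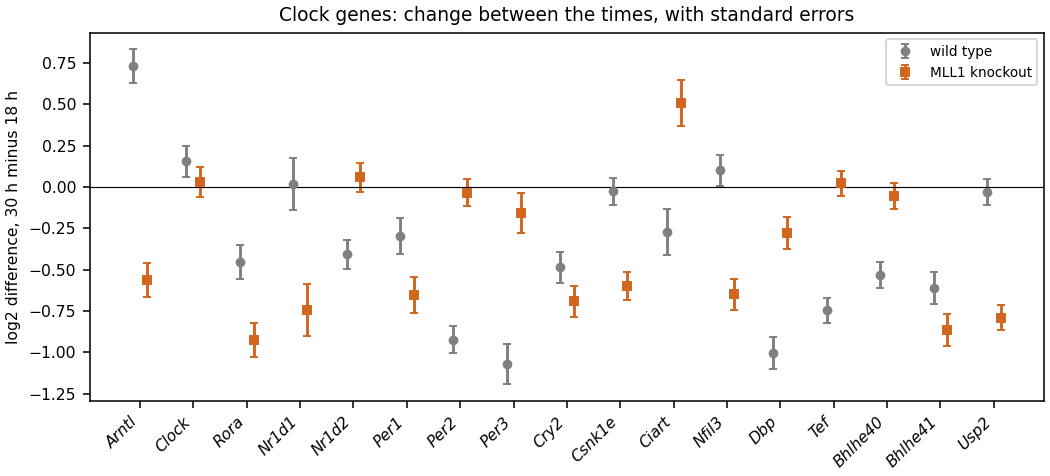
Log2 difference between 30 h and 18 h of 17 clock genes in WT (grey circles) and MLL1-KO (orange squares), with bars of 1 standard error from limma, 3 arrays per group and time. Arntl lies above 0 in WT and below 0 in MLL1-KO, and Per2, Per3, Tef and Bhlhe40 lie below 0 in WT and near 0 in MLL1-KO.

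The REV-ERB genes differed from each other. Nr1d1 read 1471, 2570.0 and 2722 at 18 h against 1320.1, 1282 and 1280.0 at 30 h, a log2 difference of -0.74 ± 0.16 (adjusted p = 0.00143), with replicate 1 nearest to the 30 h arrays, and its WT value was 0.02 ± 0.16 (adjusted p = 0.970). Nr1d2 read 1646, 2075 and 1967 at 18 h against 2002, 1834 and 2069.5 at 30 h (0.06 ± 0.09, adjusted p = 0.664), against -0.41 ± 0.09 (adjusted p = 0.0169) in WT. Of the repressors, Per1 (-0.65 ± 0.11, adjusted p = 0.000185) and Cry2 (-0.69 ± 0.10, adjusted p = 3.56e-05) fell in MLL1-KO. Per2 read 583, 639 and 633 at 18 h against 614, 606 and 589 at 30 h with overlapping times (-0.03 ± 0.08, adjusted p = 0.805), and Per3 also overlapped (-0.16 ± 0.12, adjusted p = 0.335). In WT both fell, with -0.92 ± 0.08 (adjusted p = 3.11e-05) for Per2 and -1.07 ± 0.12 (adjusted p = 0.000153) for Per3. The difference of the time effects was 0.89 ± 0.12 (adjusted p = 0.000190) for Per2 and 0.91 ± 0.17 (adjusted p = 0.00161) for Per3. Ciart, a repressor of CLOCK and BMAL1, rose (0.51 ± 0.14, adjusted p = 0.00771), with a WT value of -0.27 ± 0.14 (adjusted p = 0.315).

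Csnk1e, the casein kinase that marks PER proteins for decay, read 4471, 5772 and 5772 at 18 h against 3353, 3616 and 3518 at 30 h, a log2 difference of -0.60 ± 0.08 (adjusted p = 3.46e-05). Nfil3, which represses at D-boxes, fell (-0.65 ± 0.09), and Fbxl21, an E3 ligase adaptor for CRY proteins, (-0.47 ± 0.12). Among outputs, the repressor Bhlhe41 fell in both genotypes, with -0.86 ± 0.10 (adjusted p = 7.31e-06) in MLL1-KO and -0.61 ± 0.10 (adjusted p = 0.00314) in WT. The deubiquitinase Usp2 fell (-0.79 ± 0.08, adjusted p = 2.18e-06), against -0.03 ± 0.08 (adjusted p = 0.890) in WT. Nampt, the rate-limiting enzyme of NAD salvage, fell (-0.26 ± 0.06) and the lipid-sensing receptor Ppard (-0.37 ± 0.06). The D-box activators separated, since Tef gave 0.02 ± 0.08 (adjusted p = 0.857) in MLL1-KO and -0.75 ± 0.08 (adjusted p = 6.74e-05) in WT. Dbp fell (-0.28 ± 0.10, adjusted p = 0.0295), a call that was lost with only the 6 labelled-knockout arrays fitted (0.0576) and without 18 h replicate 2 (0.0856), 18 h replicate 3 (0.114), 30 h replicate 2 (0.105), 30 h replicate 3 (0.110), adjusted p in parentheses, and its WT value, also a fall, was -1.001 ± 0.10 (adjusted p = 4.63e-05). Bhlhe40 gave -0.05 ± 0.08 (adjusted p = 0.656) in MLL1-KO and -0.53 ± 0.08 (adjusted p = 0.00173) in WT. The difference of the time effects was 0.77 ± 0.11 (adjusted p = 0.000263) for Tef, 0.72 ± 0.14 (adjusted p = 0.00186) for Dbp and 0.48 ± 0.11 (adjusted p = 0.00679) for Bhlhe40.

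The promoter of Arntl (chr7:113207261-113207560, plus strand) is printed because the gene turned in opposite directions. Capitals mark a ROR response element NNAGGTCA, the site shared by ROR and REV-ERB proteins, and RefSeq lists 2 promoters, of which the one holding it is shown.
Arntl: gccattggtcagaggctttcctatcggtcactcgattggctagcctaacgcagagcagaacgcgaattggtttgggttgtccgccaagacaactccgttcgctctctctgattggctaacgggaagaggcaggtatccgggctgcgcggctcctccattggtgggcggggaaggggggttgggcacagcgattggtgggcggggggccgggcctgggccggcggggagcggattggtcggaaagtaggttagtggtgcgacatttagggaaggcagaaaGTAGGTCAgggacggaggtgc
The element occurred in 3 of 7 activator and loop genes with a promoter (42.9%), Arntl, Clock and Nr1d2, and in 18.0% of all genes.

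Metabolic and other lists gave the counts below, where 20.9% of all tested genes rose and 18.4% fell. The shares that rose among oxidative phosphorylation, NRF2 and BMP genes lay near that of all genes. In glycolysis and the hypoxia response 3 of 24 tested members rose and 8 fell, 5 and 8 without 18 h replicate 1. Pfkfb3, whose product raises the main allosteric activator of glycolysis, read 502, 508 and 466 at 18 h against 233, 275 and 234 at 30 h, a log2 difference of -0.95 ± 0.09 (adjusted p = 1.08e-06), and Ndrg1 and Ero1a, both hypoxia targets, fell (-0.79 ± 0.08 and -0.55 ± 0.06). Of 28 subunits of oxidative phosphorylation 6 rose and 0 fell, 5 and 0 without 18 h replicate 1, with Ndufs1 of complex I up by 0.46 ± 0.09 and Cox6c of complex IV up by 0.36 ± 0.06. Of cytosolic ribosomal proteins 0 rose and 1 fell of 22 tested, 0 and 2 without 18 h replicate 1. Ribosomal protein genes that fell numbered 0 without replicate 2 or 3 at 18 h, replicate 2 or 3 at 30 h, WT replicate 1 at 18 h or WT replicate 1, 2 or 3 at 30 h and 2 without replicate 1 at 30 h. Of adipocyte markers 1 of 15 tested members rose and 5 fell, 1 and 4 without 18 h replicate 1, and the lipase Lpl, which fibroblasts also make, read 587, 697 and 589 at 18 h against 198, 233 and 248 at 30 h, a log2 difference of -1.40 ± 0.09 (adjusted p = 4.01e-08). Adipocyte markers that rose numbered 2 without replicate 2 at 18 h or replicate 1 at 30 h, and those that fell numbered 2 without replicate 3 at 18 h and 3 without replicate 3 at 30 h, WT replicate 1, 2 or 3 at 18 h or WT replicate 1, 2 or 3 at 30 h. Of NRF2 targets 3 of 17 tested members rose and 3 fell, 2 and 2 without 18 h replicate 1, with the glutathione transferase Gstm1 down (-0.87 ± 0.09). NRF2 targets that rose numbered 6 without replicate 3 at 30 h. In BMP signalling 3 of 12 tested members rose and 4 fell, 3 and 3 without 18 h replicate 1, with the Notch and BMP target Hey1 down (-0.90 ± 0.11) and the ligand Bmp4 down (-0.54 ± 0.08). BMP genes that fell numbered 2 without replicate 2 at 18 h or replicate 2 at 30 h. Of 8 replication-dependent histones tested 0 rose and 1 fell, 0 and 2 without 18 h replicate 1. Histone genes that rose numbered 1 without replicate 3 at 30 h, and those that fell numbered 2 without replicate 1 at 30 h.

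Markers of other cell types were read in the same arrays, and their counts of rises and falls, like those of the fibroblast markers, were the same without 18 h replicate 1. The shares over all tested genes, 20.9% up and 18.4% down, stand beside each count below. Of 13 macrophage and blood cell markers 7 were tested, of which 1 rose and 1 fell. Intensities summed over the 10 with a probe set, dim ones included, were 3055, 4365 and 4694 at 18 h against 2663, 2532 and 2719 at 30 h. The 18 h sums were above the 30 h sums, and most of the gap was Cd68, a lysosomal protein of macrophages, which read 1315, 2635 and 2964 at 18 h against 897, 832 and 685 at 30 h, a log2 difference of -1.43 ± 0.21 (adjusted p = 6.33e-05). The defining leukocyte marker Ptprc and the macrophage markers Adgre1 and Lyz2 were too dim to be tested. The part that such cells have in the changes of chemokine, interferon or inflammatory genes was not tested. Macrophage and blood cell markers that fell numbered 2 without replicate 3 at 30 h. Of endothelial markers 3 of 10 were tested, of epithelial markers 8, of skeletal muscle markers 3, and none of these was called in either direction. Muscle markers that rose numbered 1 without replicate 3 at 18 h or WT replicate 1 at 30 h. Of 8 tested neural markers 1 rose and 2 fell, with the microtubule protein Map2 down (-0.72 ± 0.11). Neural markers that rose numbered 0 without replicate 2 at 30 h and 2 without replicate 1 at 30 h. Of 3 tested pericyte markers 1 rose and 1 fell, and of 4 trophoblast markers 1 rose and 0 fell. Prl2c5, described above, was not among the trophoblast markers and was brighter in every WT array than in any MLL1-KO array. Pericyte markers that rose numbered 0 without replicate 2 or 3 at 18 h or replicate 3 at 30 h.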

How the data were processed

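RNA of 12 mouse fibroblast samples was read on Affymetrix arrays, 1 array per sample, and the MLL1-KO arrays at 18 h and 30 h were compared. The values used are intensities on a linear scale, 1 per probe set and array, which the authors deposited. The submitters' processing notes name PLIER 2.0 and Affymetrix Expression Console 1.1. The normalization within PLIER, not given in the sources used here, is unknown, and array medians ran from 273 to 312. Precision is limited by how few arrays each group has.

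Of 35557 probe sets 21789 had 1 gene symbol in the platform annotation, 1621 several and 12147 none, and 21698 of the first were matched by Entrez number to current symbols on GRCm38.p6. For each of 19938 genes the probe set with the highest mean over the 12 arrays was used, and 13956 genes whose mean log2(intensity + 16) reached the 30th percentile of 7.58 were tested. limma 3.58.1 (R 4.3.3) fitted the 4 group means, with 8 residual and 7.98 prior degrees of freedom, an intensity trend and Benjamini-Hochberg adjustment. Data were simulated at each gene's mean over the groups with its real spread, with 100 genes changed by a log2 of 1 and 100 by 0.5. For MLL1-KO time the fit recovered 99 and 74 of these, with 7.98% of its calls false. For the difference of the time effects it recovered 93 and 36. Far fewer genes changed there than were called in the data, so these rates may not hold for the data.

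The members of the comparison and the 47 gene lists were chosen with earlier results of these data known, so no list count is independent evidence. The naming rule took Kmt2a, the 20 steepest rises and 20 steepest falls whose times did not overlap, the tested clock genes, up to 3 called members in each direction of other lists (all members of lists with up to 12 tested) and the 6 largest differences of the time effects each way. Not every gene that the rule took is described in the text. Among the clock genes left out, Arntl2, Csnk1d and Timeless rose and Cry1 fell, and each of these calls was lost under several alternatives. Pdgfra was named outside this rule, and the list counts without genes dim in MLL1-KO were added, after the values were seen. Alternatives were the offset, the filter, the scaling, the variance model, array weights, the arrays fitted, the probe set rule, leaving out each array, and a block for the replicate number. Promoter letters came from RefSeq's table, and the carbohydrate response element was added to the motifs after the data were seen. Same-numbered arrays' deviations from their group means correlated between -0.456 and 0.454, so the numbers were not taken to pair the arrays.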

Additional observations from a re-analysis of the deposited data

Results flagged for a closer look

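The time effects of the genotypes differed, by the test of the difference itself, for 2838 genes. Of the genes whose difference is printed here, 13 had a called positive difference (MLL1-KO minus WT, log2 scale), which means a larger rise or a smaller fall in MLL1-KO, and 17 a called negative one. The positive values were those of Prl2c5 (2.21), Hoxc5 (1.74), Abca1 (1.37), Hoxa5 (1.22), Setd1b (1.19), Egln3 (1.05), Per3 (0.91), Hsph1 (0.90), Per2 (0.89), Egln1 (0.82), Tef (0.77), Dbp (0.72) and Bhlhe40 (0.48). The negative values were those of Tnfsf18 (-3.61), Txnip (-2.68), Ccn2 (-1.86), Atf3 (-1.79), Ddit3 (-1.75), Arrdc4 (-1.64), Acta2 (-1.63), Ccn1 (-1.43), Insig1 (-1.42), Arntl (-1.29), Trib3 (-1.14), Id2 (-0.99), Cdt1 (-0.92), Srebf2 (-0.82), Hoxb9 (-0.71), Hmgcs1 (-0.65) and Rbbp5 (-0.53). Tnfsf18 was dim in all 6 WT arrays. Each comes from limma with Benjamini-Hochberg adjustment over all genes and 3 arrays per group. Genotype and the line of cells cannot be told apart.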

How the results depend on the processing

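The count for MLL1-KO time stayed between 4278 and 5992 when arrays were left out in turn, and within 1.5 times its value under the other alternatives. With the replicate number as a block it was 5375, and no count of calls moved by over 1.5 times under that block. The MLL1-KO count was 4890 with only the MLL1-KO arrays fitted. With arrays left out in turn, the number of genes with at least a 2-fold change ran from 213 without 18 h replicate 2 to 427 without 18 h replicate 1, and it was 185 with an offset of 64. With array weights, which gave 18 h replicate 1 a weight of 0.266, the difference of the time effects was called for 5246 genes and WT time for 1641. WT time was called for 997 genes with only the WT arrays fitted, and for 157 to 1032 with each array left out. Scaling moved the share of calls that were higher from 53.1% to between 44.6% with cyclic loess and 50.9% with quantile scaling, so the balance of rises and falls over all genes has no settled side. Dim genes, whose values rest on the offset, and array signal near background limit the sizes given for Prl2c5, Samd9l, Spag1, Hoxc4, Hoxc5, Hoxc9, Ifit1, Gbp3, Pde9a and Serpinb1a, whose MLL1-KO arrays were all under the filter's intensity at 1 or both times, and for Tnfsf18 in WT. For the 157 genes with values in the text there were 3908 values under the alternatives. Of these, 3894 kept their direction and their side of the threshold, 12 lost the call, 2 gained it and 0 reversed. The text describes only part of the genes that the naming rule took, so these numbers do not hold for the rest. Over all genes of the rule, with 1 MLL1-KO array left out at a time, 1492 values kept their side, 124 lost the call and 10 gained it.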

Other observations

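Egln3 and Egln1, prolyl hydroxylases that mark hypoxia-inducible factors for decay, rose in MLL1-KO, with a log2 difference of 0.39 ± 0.11 (adjusted p = 0.00781) for Egln3 and a log2 difference of 0.45 ± 0.10 (adjusted p = 0.00253) for Egln1. The Egln3 call was lost without 18 h replicate 2 (0.0530), adjusted p in parentheses. In WT, Egln3 fell with -0.66 ± 0.11 (adjusted p = 0.00300) and Egln1 gave -0.37 ± 0.10 (adjusted p = 0.0595), and the differences of the time effects were 1.05 ± 0.15 (adjusted p = 0.000303) and 0.82 ± 0.15 (adjusted p = 0.00136). Keap1, the adaptor that keeps NRF2 low, read 636, 378 and 346 at 18 h against 746, 718 and 701 at 30 h, a log2 difference of 0.70 ± 0.15 (adjusted p = 0.00148). Its replicate 1 lay between its 18 h partners and the 30 h arrays. The NRF2 target Txnrd1 fell (-0.43 ± 0.09, adjusted p = 0.00107), whereas the targets Gsr and Gclm were brighter in every 30 h array than in any 18 h array. Such a separation upward held for 24.3% of all tested genes. The Gclm call was lost under several alternatives, among them leaving out 18 h replicate 1. Of the NRF2 list, Keap1 included, 3 members rose and 3 fell, and NRF2 activity was not tested. In the endoplasmic reticulum the co-chaperones Dnajb11 (0.68 ± 0.10, adjusted p = 5.94e-05) and Dnajc3 (0.52 ± 0.08, adjusted p = 0.000143) rose, and the stress sensor Atf6 fell (-0.39 ± 0.09, adjusted p = 0.00180). Id2, an inhibitor of helix-loop-helix factors, gave -0.22 ± 0.13 (adjusted p = 0.226) in MLL1-KO, called only with array weights and without 30 h replicate 1, and rose in WT by 0.77 ± 0.13 (adjusted p = 0.00484), with a difference of -0.99 ± 0.19 (adjusted p = 0.00193).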
